A study of Homo sapiens with 6 samples.

Results

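The genes described here are 10 transcription factors known for driving the epithelial-mesenchymal transition (EMT), or close relatives of such factors: the SNAI family (SNAI1, SNAI2, SNAI3), the ZEB family (ZEB1, ZEB2), the TWIST family (TWIST1, TWIST2), PRRX1, and the E proteins TCF3 and TCF4. They were chosen by symbol from 37803 symbols that occur once in each of 2 expression tables. The question was whether any related factor is higher in cells that have lost SNAI1. All libraries were made from H1, an established line of human embryonic stem cells, 2 days into hematopoietic differentiation with activin A (40 ng/ml) and BMP4 (50 ng/ml) per the labels. The methods of the study give these doses the other way round, and which is right is not known. WT cells carried no SNAI1 deletion, and the libraries labelled SNAI1_KO_1 and SNAI1_KO_2 came from a pair of lines in which SNAI1 had been disrupted by CRISPR/Cas9 frameshift. Each group had 2 libraries, 1 in each table, and whether these were separate cultures is not given. The p-values rest on the spread left between these libraries once differences between the tables are taken out, with 2 residual degrees of freedom. They do not measure the spread between cell lines. SNAI1 mRNA rose, and none of the other factors rose past the threshold. SNAI2, ZEB1, ZEB2, TWIST1 and TCF4 fell, TWIST2 and TCF3 did not pass the test, and SNAI3 and PRRX1 were too low to enter it. These calls compare libraries within a table, and none of them held in a fit without that block.

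In an EMT, epithelial cells give up their junctions and acquire migratory, mesenchymal properties, and gastrulation is its classical embryonic example. SNAI and ZEB proteins are zinc finger repressors that bind E-box sequences in the promoters of junction genes such as CDH1, which encodes E-cadherin. TWIST proteins are basic helix-loop-helix (bHLH) factors that bind E-boxes as dimers with E proteins such as TCF3 and TCF4, while ID proteins bind E proteins and keep them off DNA. The miR-200 microRNAs and the OVOL and GRHL factors are known to oppose ZEB1 and ZEB2.

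Levels are in FPKM (fragments normalized to transcript length and to library size). The FPKM summed to between 603399 and 633851 per library, and each library listed between 13568 and 14091 symbols at or above 1 FPKM. The read depth is not given, so no counting error could be attached to a level. A gene was tested if its mean over the 6 libraries was at least 1 FPKM, which 13909 genes and 8 of the 10 factors met. A gene could meet this through WT alone, as ZEB1 and HAND2 did, or through the knockout libraries alone, as OVOL1, GRHL3, CLDN3, TJP3 and SOX9 did. Such a gene could hardly be called in the other direction, so counts of rises and falls that include it are partly set by the filter. Differences from WT were taken within a table, on the log2(FPKM + 1) scale (every difference below is on it, given in log2 units with its SE), which understates the change of a low gene, and were tested with limma with Benjamini-Hochberg adjustment over all genes tested at a threshold of 0.05. The comparison of both knockout groups with WT called 31.3% of all genes tested, 15.8% higher and 15.4% lower. In bulk RNA, fewer cells of a type and less RNA per cell cannot be told apart.

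SNAI1, the disrupted gene, was higher and not lower in the knockout libraries. The levels of WT, SNAI1_KO_1 and SNAI1_KO_2 were 37.1, 51.6 and 68.6 FPKM in the first table and 36.4, 47.8 and 55.0 FPKM in the second. Within each table both knockout libraries lay above WT. The difference of both groups from WT was 0.58 ± 0.07 (SE) on the log2(FPKM + 1) scale (95% confidence interval 0.39 to 0.76, limma adjusted p = 0.00461). Since a frameshift can leave the mRNA intact while altering the protein, this level is no check of the labels. Directions are therefore those of the libraries as labelled. With WT of the first table left out, the SNAI1 difference was 0.48 and its adjusted p was 0.0522. The processed pseudogene SNAI1P1, which could share reads with SNAI1, stood at no more than 0.265 FPKM in any library.

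SNAI2, also called Slug and a repressor of the same E-box class, fell. The first table gave 27.4 FPKM for WT, 14.7 for SNAI1_KO_1 and 19.8 for SNAI1_KO_2, while the second gave 19.9, 15.0 and 13.9 FPKM. Within each table both knockout libraries lay below WT, at between 53.5% and 75.3% of it. The difference was -0.55 ± 0.12 (95% confidence interval -0.86 to -0.23, limma adjusted p = 0.0262). SNAI2 was the least secure call among the factors, since it was lost when any of 4 libraries was left out: either WT library (adjusted p = 0.197 and 0.101) or either SNAI1_KO_2 library (0.0536 and 0.0883). It was also lost with no expression filter, where the adjusted p was 0.128.

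SNAI3, a further zinc finger paralog, was the only other family member with a higher level in every knockout library. WT of the first table held 0.143 FPKM, against 0.594 in SNAI1_KO_1 and 0.486 in SNAI1_KO_2, and the second table gave 0.280, 1.31 and 1.65 FPKM in that order. The 4 knockout libraries were thus at between 339% and 590% of the WT library of their table, from a level below the filter. In the fit with no filter the difference was 0.69, the unadjusted p was 0.0243 and the limma adjusted p was 0.131, so the increase did not pass. Among symbols below the filter with any value above 0, 10.6% were higher in all 4 knockout libraries. SNAI3-AS1, a neighbouring antisense transcript, stood at between 1.69 and 3.19 FPKM with an adjusted p of 0.960. Whether counting used the strand is not given, so reads of SNAI3 and of its antisense partner cannot be told apart.

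Summed over the family, SNAI transcripts were not lower in the knockout libraries. Most of this sum was the mRNA of SNAI1, the disrupted gene, so it does not give the level of intact family members. In the order WT, SNAI1_KO_1, SNAI1_KO_2, the sum of SNAI1, SNAI2 and SNAI3 was 64.7, 66.9 and 88.9 FPKM in the first table, while the second gave 56.5, 64.1 and 70.6 FPKM. The makeup of the sum moved. SNAI1 made up 57.4% and 64.3% of it in the WT libraries and between 74.6% and 78.0% in the knockout libraries. The share of SNAI2 was 42.4% and 35.2% in WT and between 19.7% and 23.4% in the knockout libraries. SNAI3 reached at most 2.34% of the sum.

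**Figure D1:**
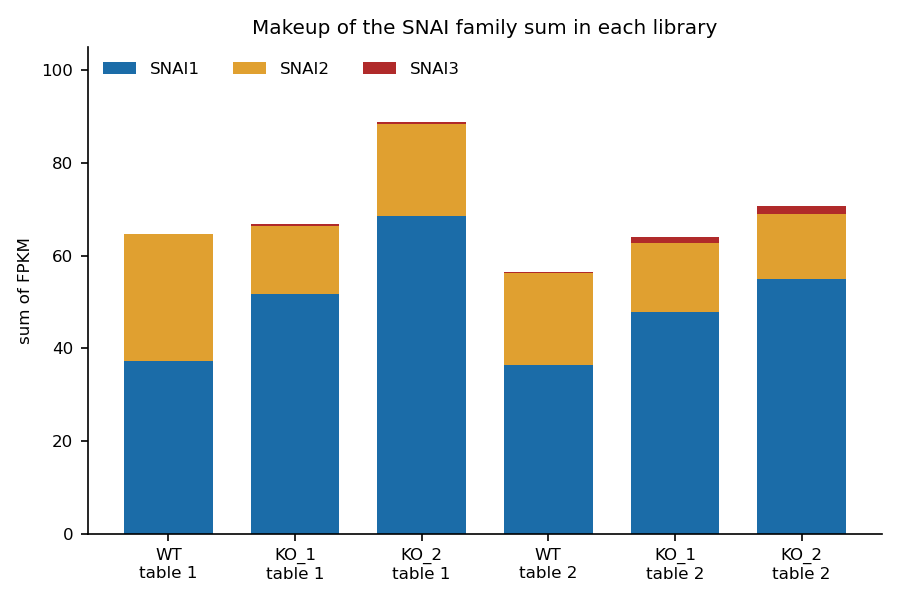
Stacked bars of the FPKM of SNAI1, SNAI2 and SNAI3 in each of the 6 libraries, on a linear axis from 0; KO_1 and KO_2 are the libraries labelled SNAI1_KO_1 and SNAI1_KO_2. The SNAI2 part is smaller in the 4 knockout libraries than in WT of their table, the SNAI1 part is larger, and SNAI3 is at most 1.65 FPKM.

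ZEB1 and ZEB2, zinc finger and homeodomain repressors of epithelial genes, showed the largest decreases among the factors on the log2(FPKM + 1) scale. With a pseudocount of 10 in place of 1, the decrease of ZEB1 (-0.23) was smaller than those of SNAI2 (-0.38) and TCF4 (-0.42). The levels of ZEB1 in WT, SNAI1_KO_1 and SNAI1_KO_2 were 2.02, 0.178 and 0.212 FPKM in the first table and 2.88, 0.913 and 1.10 FPKM in the second. The knockout libraries of the first table held 8.81% and 10.5% of the WT level, and those of the second 31.7% and 38.0%. Both knockout libraries lay far below WT within each table, but the size of the decrease in FPKM depended on the table. The fitted difference was -1.15 ± 0.17 (95% confidence interval -1.57 to -0.73, limma adjusted p = 0.00661). With WT of the first table left out, the adjusted p was 0.0604. ZEB1-AS1, a divergent antisense transcript, differed by -0.60 with an adjusted p of 0.0727, and its reads cannot be told apart from those of ZEB1 without strand.

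ZEB2 was the more abundant ZEB transcript in every library at or above 75.3% of the ZEB sum. The first table gave 12.0 FPKM for WT, 5.79 for SNAI1_KO_1 and 5.77 for SNAI1_KO_2, while the second gave 9.98, 3.10 and 3.34 FPKM. Both knockout libraries lay below WT within each table, and the lines were close to each other. The difference was -1.16 ± 0.13 (95% confidence interval -1.49 to -0.83, limma adjusted p = 0.00298), which 1.49% of all genes tested exceeded in the downward direction. The call was kept without each library in turn. ZEB2-AS1 stood at no more than 0.517 FPKM.

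The sequence before the start of ZEB1 and ZEB2 is shown because both genes fell and because E-boxes are the sites that SNAI proteins bind. The 250 bases before the most upstream start that RefSeq gives for each gene (build GRCh38.p14, read 5′ to 3′ on the strand of the gene) were searched for CAGGTG and its reverse complement CACCTG, the E-box bound by SNAI and ZEB proteins, printed in capitals. The ZEB1 window is chr10:31318167-31318416 on the plus strand and the ZEB2 window is chr2:144520120-144520369 on the minus strand.
ZEB1: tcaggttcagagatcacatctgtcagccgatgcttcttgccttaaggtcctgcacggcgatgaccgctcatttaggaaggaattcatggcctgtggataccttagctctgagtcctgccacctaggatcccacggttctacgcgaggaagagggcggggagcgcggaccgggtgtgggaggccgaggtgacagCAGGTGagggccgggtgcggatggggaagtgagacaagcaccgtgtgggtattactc
ZEB2: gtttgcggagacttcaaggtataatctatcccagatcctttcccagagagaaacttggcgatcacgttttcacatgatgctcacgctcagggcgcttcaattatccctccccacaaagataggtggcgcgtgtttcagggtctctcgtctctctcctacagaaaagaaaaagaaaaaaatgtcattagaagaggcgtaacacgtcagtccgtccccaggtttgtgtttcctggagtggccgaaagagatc
The ZEB1 window held 1 match, 57 bases before the start, and the ZEB2 window held none. ZEB1 has 7 windows in the table, of which 2 held a match, and the 1 window each of TWIST2, PRRX1 and TCF3 and the 10 of TCF4 held none. Of all 35116 windows of this length, 17.5% held at least 1 match. SNAI1, SNAI2, SNAI3 and TWIST1 had no entry. A match is a description of the letters and not a binding site, and the lack of a match does not show a lack of binding. By chromatin immunoprecipitation with PCR, the study found the SNAI1 protein at the promoters of SNAI2 and ZEB2. It also reported lower SNAI2 and ZEB2 expression after SNAI1 deletion.

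TWIST1, a bHLH factor of mesoderm and neural crest, fell at a similar ratio in both tables. WT of the first table held 3.15 FPKM, against 1.40 in SNAI1_KO_1 and 1.38 in SNAI1_KO_2, and the second table gave 9.22, 4.24 and 4.59 FPKM in that order. The knockout libraries held between 43.9% and 49.8% of the WT level of their table. The ratio was thus alike in the tables, although WT of the second was listed at 2.93 times the level of WT of the first. The difference was -0.86 ± 0.11 (95% confidence interval -1.14 to -0.58, limma adjusted p = 0.00461), and without the WT library of the second table the adjusted p was 0.0602. TWIST2, its close paralog, stood at 2.14, 1.39 and 0.973 FPKM in the first table and at 2.39, 1.32 and 1.57 FPKM in the second, in the same order of groups. WT was highest in each table, but the difference of -0.50 ± 0.15 (95% confidence interval -0.89 to -0.12) did not pass (limma adjusted p = 0.0590).

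Of the other twist family members with a mean of at least 1 FPKM, HAND1 and HAND2 fell. HAND1, a factor of extraembryonic and lateral mesoderm, stood at 242, 66.4 and 64.3 FPKM in WT, SNAI1_KO_1 and SNAI1_KO_2 of the first table and at 201, 48.5 and 47.2 FPKM in the second. Its knockout levels were between 23.5% and 27.5% of WT, and its difference was -1.96 ± 0.06 (limma adjusted p = 0.000143). HAND2, a factor of heart and limb mesenchyme, stood at 6.75, 0.451 and 0.432 FPKM and at 10.1, 0.545 and 0.655 FPKM, a difference of -2.61 ± 0.15 (limma adjusted p = 0.000426). TCF15, a factor of somites and of the epiblast, differed by 0.08 (adjusted p = 0.707) and SCX, a tendon factor, by -0.34 (adjusted p = 0.0726). Of the 6 twist family genes tested, 3 fell (HAND2 having met the filter through WT alone) and none rose. At an unadjusted p under 0.05, 5 were lower and none was higher. Of all genes tested, 15.4% were called lower and 15.8% higher. Their median was -0.68, beside -0.05 over all genes tested.

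The E proteins are the dimer partners of TWIST and HAND proteins. TCF3, which encodes E12 and E47, was the most abundant of the 10 factors in every library. The levels of WT, SNAI1_KO_1 and SNAI1_KO_2 were 162, 154 and 159 FPKM in the first table and 392, 384 and 382 FPKM in the second. The knockout libraries lay at between 95.2% and 98.2% of WT. The difference was -0.04 (95% confidence interval -0.14 to 0.06, limma adjusted p = 0.455), and it turned to 0.01 when libraries were scaled by median ratios. TCF4, also called E2-2, stood at 99.3, 67.3 and 83.9 FPKM in the first table and at 79.8, 51.6 and 57.5 FPKM in the second. Both knockout groups lay below WT within each table, and the difference was -0.47 ± 0.06 (95% confidence interval -0.63 to -0.31, limma adjusted p = 0.00521). Without the WT library of the second table the adjusted p was 0.0587. The third E protein, TCF12, differed by -0.24 with an adjusted p of 0.0513.

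All 4 ID genes, whose products sequester E proteins, rose. ID1 stood at 239, 486 and 463 FPKM in the first table and at 239, 463 and 525 FPKM in the second, a difference of 1.01 ± 0.06 (limma adjusted p = 0.000444). ID3 differed by 0.95 and ID2 by 0.60, with adjusted p of 0.000567 and 0.00855. ID4 differed most, by 1.82 ± 0.12 (adjusted p = 0.000576), from 9.46 FPKM in WT to 34.0 and 31.9 in the first table and from 19.8 to 69.0 and 89.9 in the second. The sum of the 4 ID genes divided by the sum of the 3 E proteins was 1.19 in WT of the first table, 2.77 in SNAI1_KO_1 and 2.45 in SNAI1_KO_2. The second table gave ratios of 0.743, 1.55 and 1.80. The ratio was higher in each knockout library than in the WT library of its table, and its level differed between the tables. Of the 7 genes of this group, 4 rose and 1 fell, beside 15.8% and 15.4% of all genes tested, and the median was 0.60.

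**Figure D2:**
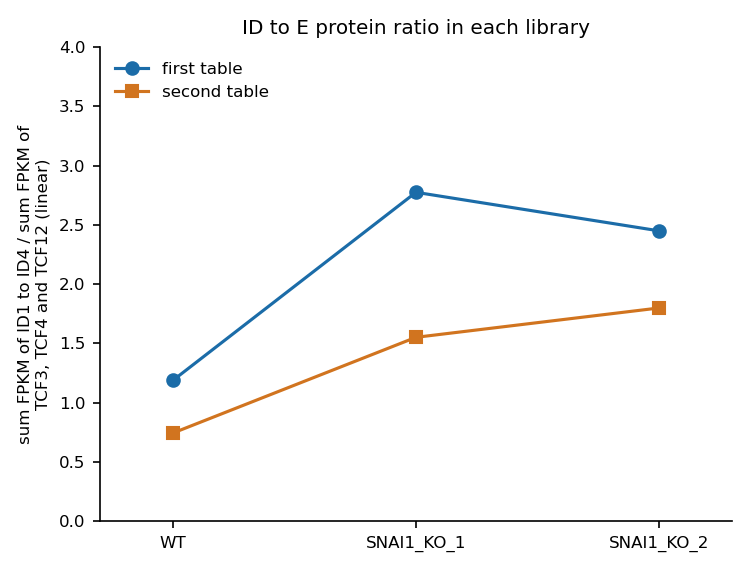
The sum of FPKM of ID1, ID2, ID3 and ID4 divided by that of TCF3, TCF4 and TCF12, a linear axis from 0, in each library, with lines joining the 3 libraries of a table. WT libraries lie at 1.19 and 0.743, and the knockout libraries of the same tables at 2.45 to 2.77 and at 1.55 to 1.80.

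PRRX1, a paired-type homeobox factor of limb and craniofacial mesenchyme, was close to 0 in all libraries. The first table gave 0.0216 FPKM for WT, 0.319 for SNAI1_KO_1 and 0.135 for SNAI1_KO_2, while the second listed WT at 0 with 0.0106 and 0.203 FPKM in the knockout libraries. In the fit with no filter its difference was 0.20 (limma adjusted p = 0.411). PRRX2, its paralog, was the expressed gene of the pair, at 6.76, 2.58 and 2.17 FPKM in the first table and 7.56, 4.80 and 4.73 FPKM in the second. PRRX2 fell by 0.89 on the log2(FPKM + 1) scale (SE 0.17, limma adjusted p = 0.0156), and ALX1, another relative, differed by -0.38 with an adjusted p of 0.152.

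In WT the factors ranked TCF3, TCF4, SNAI1, SNAI2, ZEB2, TWIST1, ZEB1, TWIST2, SNAI3 and PRRX1 from the highest to the lowest level in FPKM. This order is set across tables that were normalized separately, and the ranges of the 2 WT libraries overlapped only for the neighbours ZEB1 and TWIST2. Leaving out SNAI1, TCF3 and TCF4, the remaining factors summed to 46.9, 24.3 and 28.7 FPKM for WT, SNAI1_KO_1 and SNAI1_KO_2 of the first table and to 44.6, 25.9 and 26.3 FPKM for those of the second.

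**Figure D3:**
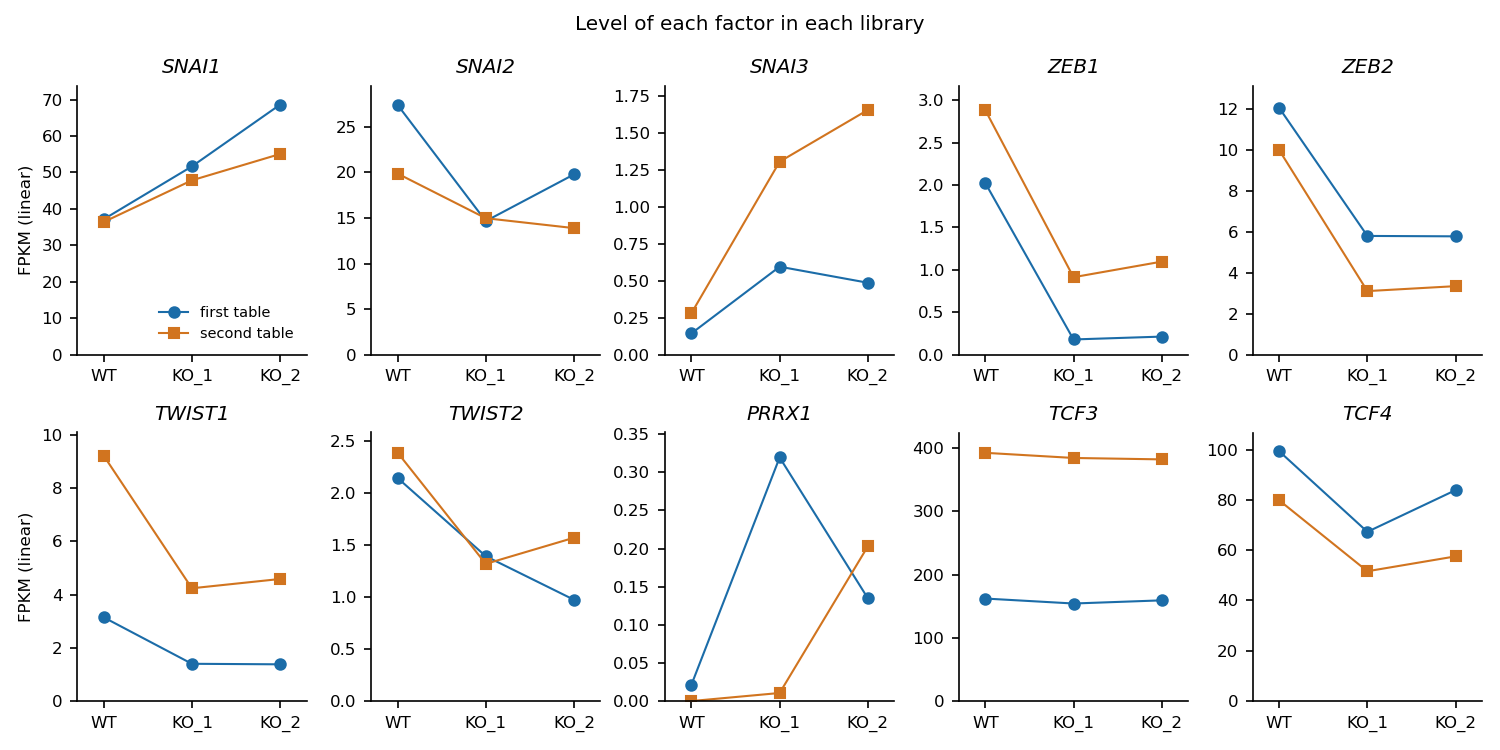
The FPKM of each of the 10 factors in WT and in the libraries labelled SNAI1_KO_1 and SNAI1_KO_2 (KO_1, KO_2), on linear axes from 0 that differ between panels, with lines joining the 3 libraries of a table. SNAI1, SNAI3 and PRRX1 lie above WT in both lines, SNAI2, ZEB1, ZEB2, TWIST1, TWIST2 and TCF4 lie below it, and TCF3 is nearly level within each table.

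Over the 8 factors tested, 1 (SNAI1) rose and 5 fell, beside 15.8% and 15.4% of all genes tested. The 5 include ZEB1, which met the filter through WT alone. Of the 8, 7 were lower in all 4 knockout libraries than in WT of their table, which 35.1% of all genes tested were. These 7 include TCF3, at between 95.2% and 98.2% of WT. SNAI1 was higher in all 4, as were 26.2% of all genes tested. SNAI3 and PRRX1, below the filter, were also higher in all 4, as were 10.6% of symbols there with a value above 0. The median difference of the 8 was -0.52, beside -0.05 over all genes tested. In SNAI1_KO_1 alone 1 factor rose and 5 fell, against 13.0% and 10.9% of all genes (23.9% in either direction). In SNAI1_KO_2 alone 1 rose and 4 fell, against 13.5% and 12.0% (25.5% in either direction), and the factor that no longer passed was SNAI2 (adjusted p = 0.0677). Between the 2 lines limma called none of the 8 factors and 0.00% of all genes tested, although SNAI1 and TCF4 had an unadjusted p under 0.05. SNAI1 was higher in SNAI1_KO_2 than in SNAI1_KO_1 by 0.30 (95% confidence interval 0.08 to 0.52) and TCF4 by 0.23 (95% confidence interval 0.05 to 0.42). The counts rest on comparing libraries within a table. In a fit without the table block limma called none of the 8 factors, with 5 at an unadjusted p under 0.05, beside 7.66% of all genes (5.51% higher and 2.15% lower), and the lowest adjusted p was 0.0761, for SNAI1.

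**Figure D4:**
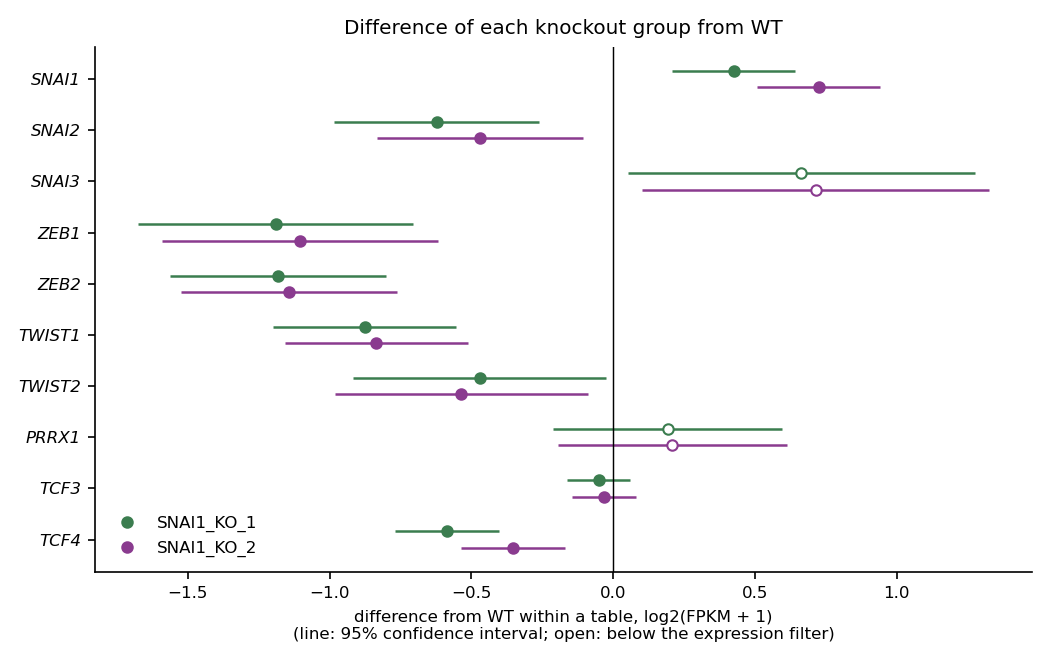
The difference of each knockout group from WT on the log2(FPKM + 1) scale for the 10 factors, with 95% confidence intervals as lines and open points for SNAI3 and PRRX1, which were below the expression filter and come from the fit without it. SNAI1 lies to the right of 0 in both lines, at 0.42 and 0.73, while ZEB1 and ZEB2 lie between -1.19 and -1.10.

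Of 11 tested factors that oppose ZEB proteins or EMT, 9 rose and none fell, with 1 lower at an unadjusted p under 0.05. Their median was 1.18, and of all genes tested 15.8% were called higher and 15.4% lower. The 9 include OVOL1 and GRHL3, with WT means of 0.731 and 0.940 FPKM, which met the filter through the knockout libraries alone. GRHL3, an epidermal factor, rose most, from 0.858 FPKM in WT to 7.39 and 6.76 in the first table and from 1.02 to 5.90 and 7.92 in the second, a difference of 2.04 ± 0.14 (limma adjusted p = 0.00072). On the same log2 scale GRHL2 rose by 1.24, OVOL2, a repressor of ZEB1, by 1.41 and OVOL1 by 0.55, with adjusted p of 0.00175, 0.000965 and 0.0366. ESRP1 and ESRP2, splicing regulators of epithelial isoforms, rose by 1.22 and 1.46 log2 units. ELF3 rose by 0.87 and KLF5 by 0.40 log2 units. GRHL1 differed by 0.38 (adjusted p = 0.218) and KLF4 by -0.40 (adjusted p = 0.0781).

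MIR200CHG, the host transcript of MIR200C and MIR141, was the remaining gene of this group that rose. The first table gave 0.472 FPKM for WT, 4.79 for SNAI1_KO_1 and 3.56 for SNAI1_KO_2, while the second gave 1.55, 3.34 and 2.24 FPKM. Both knockout libraries lay above WT within each table. The knockout libraries of the first table held 10.1 and 7.54 times the WT level, and those of the second 2.15 and 1.45 times, so the size of the increase depended on the table. The difference was 1.18 ± 0.29 (limma adjusted p = 0.0342). It did not pass with no expression filter (limma adjusted p = 0.167) or without the table block (0.0832). Levels of the mature microRNAs were not analysed here. Their sequences are shown, grouped by the seed (bases 2 to 8, in capitals, from RefSeq), because their known targets ZEB1 and ZEB2 fell.
hsa-miR-200b-3p: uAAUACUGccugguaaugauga
hsa-miR-200c-3p: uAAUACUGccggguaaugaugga
hsa-miR-429: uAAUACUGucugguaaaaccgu
hsa-miR-200a-3p: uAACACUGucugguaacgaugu
hsa-miR-141-3p: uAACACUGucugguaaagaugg
The first 3 share the seed AAUACUG and the last 2 the seed AACACUG, and MIR200CHG carries miR-200c and miR-141, which have different seeds. The letters that pair with these seeds, CAGTATT and CAGTGTT, were searched on the transcript strand of the longest 3′ untranslated region that GENCODE 29 gives for each protein-coding gene. ZEB1 held 6 and 3 of them in 2549 bases, and ZEB2 held 5 and 4 in 5370 bases. Of the 18960 genes searched, 0.0317% held 9 or more, as did 0.137% of the genes whose region is at least as long as that of ZEB1 and 0.371% of those at least as long as that of ZEB2. For each seed, the first site of each gene is printed with 10 bases on either side (build GRCh38, strand of the gene, seed match in capitals).
ZEB1, chr10:31527623-31527649, plus strand: tttatcttatCAGTATTatcactctta
ZEB1, chr10:31528036-31528062, plus strand: tcatcagaatCAGTGTTtgtgattgtg
ZEB2, chr2:144389043-144389069, minus strand: taccatacatCAGTATTtttattatta
ZEB2, chr2:144389227-144389253, minus strand: aaattttgtaCAGTGTTaaggcctaaa
These are matches of letters, and whether a microRNA acted on them in these cells was not tested.

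Genes known as direct targets that SNAI, ZEB or TWIST proteins repress were higher almost throughout. Of 22 tested, 19 rose and none fell, and the median was 1.69. At an unadjusted p under 0.05, 20 were higher and none was lower. Of all genes tested, 15.8% were called higher and 15.4% lower. The 19 include CLDN3 and TJP3, with WT means of 0.439 and 0.878 FPKM, which met the filter through the knockout libraries alone. CLDN4, a tight junction claudin, stood at 1.72 FPKM in WT of the first table, against 27.4 and 26.6 in the knockout libraries, and at 2.34 against 39.1 and 47.0 FPKM in the second, a difference of 3.54 ± 0.12 (limma adjusted p = 0.00018). CLDN3, another claudin, rose by 3.03, ST14, the membrane protease matriptase, by 2.87, and OCLN, which encodes the junction protein occludin, by 2.56 log2 units. CDH1, with nearly the same difference as OCLN, stood at 10.3, 76.6 and 80.7 FPKM and at 18.5, 90.1 and 100 FPKM, at between 488% and 784% of WT. CDH1 thus moved opposite to ZEB2: the ratio of ZEB2 to CDH1 in FPKM was 1.17 and 0.540 in WT and between 0.0333 and 0.0756 in the knockout libraries.

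Genes known to rise with these factors did not move in a common direction. Of 27 tested, 7 rose and 11 fell, beside 15.8% and 15.4% of all genes tested, and the median was -0.18. TAGLN, an actin-binding protein of smooth muscle, rose by 2.05 log2 units (adjusted p = 0.000141). CDH11, a mesenchymal cadherin, fell by 2.26 and VIM, which encodes the intermediate filament vimentin, by 1.60 log2 units, with adjusted p of 0.00138 and 0.00117. CDH2, which encodes N-cadherin, differed least, by 0.07 (adjusted p = 0.557), at between 61.0 and 89.3 FPKM in all libraries.

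The search for a factor that rises was extended to 23 tested genes of other transcription factors known to promote a mesenchymal state. These were also mixed: 5 rose and 10 fell, beside 15.8% and 15.4% of all genes tested, with a median of -0.29. TBXT, the primitive streak factor Brachyury, rose most, from 17.8 FPKM in WT to 130 and 143 in the first table and from 38.7 to 218 and 251 in the second, a difference of 2.72 ± 0.08 (limma adjusted p = 0.000142). The other 4 that rose were SOX9, FOXC1, MSX2 and ETV4, and were named after their values were seen. SOX9 rose by 1.09 (adjusted p = 0.0045) from 0.585 and 1.01 FPKM in WT to between 2.56 and 3.38 FPKM, FOXC1 by 0.57, MSX2 by 0.49 and ETV4 by 0.34 log2 units. SOX9 met the filter through the knockout libraries alone. FOXF1, a lateral mesoderm factor, fell by 1.83 and MESP2, a mesoderm and somite factor, by 1.52 log2 units, with adjusted p of 0.000634 and 0.0012. GATA4, a cardiac and endoderm factor, fell by 1.23 log2 units (adjusted p = 0.0012). SOX4 differed least, by 0.04 (adjusted p = 0.694).

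**Figure D5:**
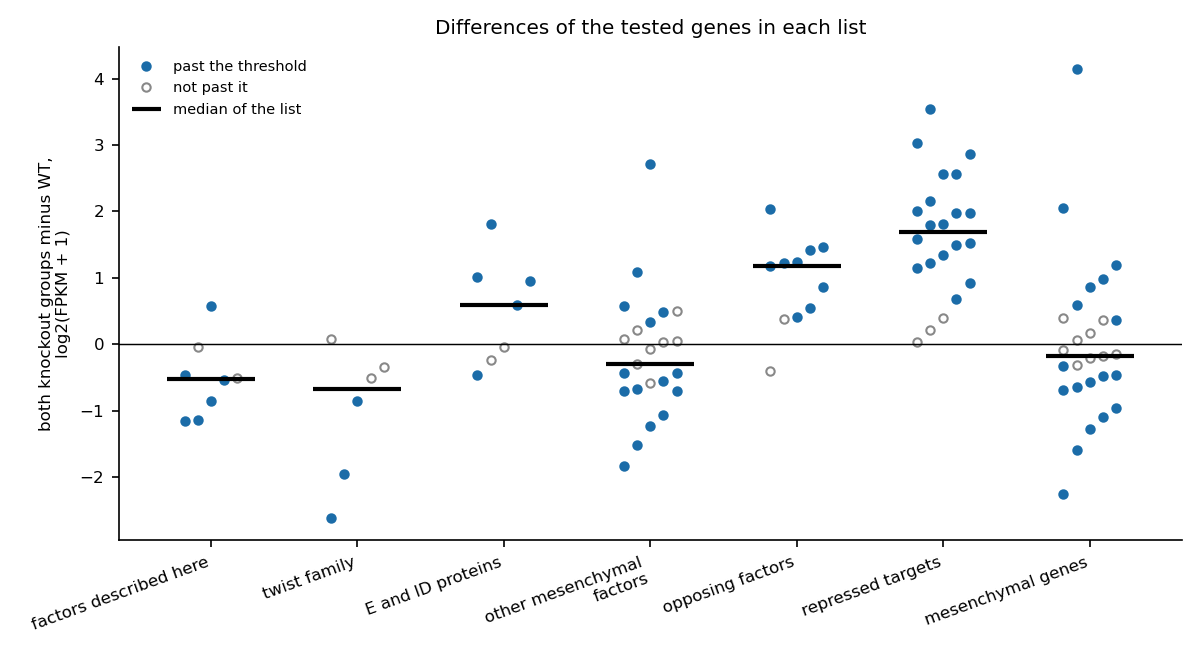
The difference of both knockout groups from WT on the log2(FPKM + 1) scale for each tested gene of 7 lists, with filled points past the threshold of 0.05, open points not past it and a bar at the median. The factors described here have a median of -0.52, the opposing factors 1.18 and the repressed targets 1.69.

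Some lists of cell type markers differed between WT and the knockout libraries. The primitive streak and mesoderm list shares genes with the lists above, among them HAND1, FOXF1, TBXT, EOMES, MESP1 and PDGFRA, so it is not independent of them. Other lists overlap as well. ESRP1 is both an opposing factor and a repressed target, and THY1 and POSTN are both mesenchymal genes and fibroblast markers. GATA6 and ETS1 are among the other mesenchymal factors and are also endoderm and neural crest markers. The counts below stand beside 15.8% of all genes tested called higher and 15.4% called lower. The summed level of 10 primitive streak and mesoderm markers, all of them detected at a mean of at least 1 FPKM, was 1634 and 1702 FPKM in WT and between 1109 and 1193 FPKM in the knockout libraries, with 7 lower and 1 (TBXT) higher. The summed level of 8 pluripotency markers was 1127 and 1148 FPKM in WT and between 1366 and 1540 FPKM in the knockout libraries, with 3 higher and none lower by the limma test, 1 of them lower at an unadjusted p under 0.05. The definitive endoderm, amnion and trophoblast, fibroblast and neural crest lists moved in both directions. In these, single genes, chosen after their values were seen, made up much of the sums or of their differences. The 8 definitive endoderm markers summed to 3143 and 3516 FPKM in WT and to between 1433 and 2047 FPKM in the knockout libraries, with 2 higher (SOX17 and FOXA1) and 4 lower. Without CER1, a secreted inhibitor of NODAL and BMP signalling, that sum was 254 FPKM in WT and 269 and 242 FPKM in the knockout libraries of the first table, and 593 against 542 and 456 FPKM in the second. Amnion and trophoblast markers summed to 37.0 and 57.3 FPKM in WT and to between 62.0 and 85.5 FPKM in the knockout libraries, with 3 higher and 1 (GATA3) lower of 5 tested. Without IGFBP3, which binds insulin-like growth factors, their sum was 36.2 FPKM in WT and 37.8 FPKM in both knockout libraries of the first table, and 56.8 against 47.6 and 64.5 FPKM in the second. The 8 fibroblast markers summed to 160 and 162 FPKM in WT and to between 204 and 295 FPKM in the knockout libraries, with 1 (THY1) higher and 2 (LUM and POSTN) lower of 6 tested. Without THY1, a cell surface glycoprotein, the sum was 102 FPKM in WT and 74.9 and 73.7 FPKM in the knockout libraries of the first table, and 83.2 against 84.6 and 99.9 FPKM in the second. Neural crest markers, which bear on SNAI2 and TWIST1, summed to between 53.1 and 63.6 FPKM in all libraries, with 2 (SOX10 and NGFR) higher, 1 (ETS1) lower and a median log2 difference of 0.70 over the 5 of 9 tested. Without ETS1, a transcription factor of many cell types, their sum was 15.5 FPKM in WT and 18.7 and 20.6 FPKM in the knockout libraries of the first table, and 23.3 against 34.6 and 33.4 FPKM in the second. Neural ectoderm markers summed to between 157 and 181 FPKM. Of the 2 tested, 1 (NES) was higher and the other was lower only at an unadjusted p under 0.05. Endothelium and blood markers summed to no more than 7.68 FPKM, and the 1 tested was not called. HES5 of the neural ectoderm list and PTPRC of the blood list were listed at 0 throughout. The part of cell type shares in the differences of the factors was not tested.

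The genes whose pattern over the 6 libraries was most like that of a factor were found by the root-mean-square distance of log2(FPKM + 1) values after centring within each table. For SNAI1 they were LSMEM1, DSCR3 and KRT17P1, at distances of 0.04 to 0.05. For ZEB2 they were FST, LINC00888 and ISM1, at 0.03 to 0.04, and for ZEB1 they were NNAT, CACNA1A and NT5C, at 0.07. SNAI2 was nearest to CACNA1G, GPC2 and ACVR2A, at 0.04 to 0.05. TWIST1 was nearest to ZNF568, NBPF9 and FIGNL2 and TWIST2 to GDF11, PLEKHO1 and TRIM47. TCF3 was nearest to RPL6, ETF1 and RNASEH2A, and TCF4 to COA7, ZFP41 and AL022328.4. No factor was among the 3 nearest genes of another. With 13908 genes compared for each factor, this says little about how alike the factors are.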

How the data were processed

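RNA of H1 cells was sequenced after TruSeq preparation from 2 ug of total RNA. The authors deposited 2 tables of FPKM, each with 1 library of WT, SNAI1_KO_1 and SNAI1_KO_2. A heading in the second table names the unit, and the first is taken to hold the same. The submitters' processing notes name BWA, Bowtie, RSEM and hg19, without roles or versions. The tables were normalized separately, so libraries were compared within a table. They list 38100 and 58324 gene rows, and whether the same annotation and processing made both is not given. Symbols that a table lists repeatedly were left out.

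With limma 3.58.1 in R 4.3.3, log2(FPKM + 1) was fitted on group with the table as a block, with a mean-variance trend, for genes with a mean of at least 1 FPKM. Libraries of the same table deviated together, with correlations of 0.616, 0.666 and 0.676 over genes for the 3 pairs of groups, so the table was kept as a block. The procedure was run on simulated data drawn from the fitted model itself, which cannot test that model's assumptions. The alternatives were pseudocounts of 0.1 and 10, no replicate block, no expression filter, a minimum mean of 5 FPKM, quantile and median-ratio scaling, no trend, the compared groups alone, and each library left out.

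The factors and gene lists were chosen with earlier results of these data known. All 10 factors are named, as is every tested gene of the snail, twist, E and ID protein, PRRX1-related and opposing lists. Of longer lists the 4 genes past the threshold with the largest difference and the gene with the smallest are named, with the 3 genes most like each factor. Some genes that this rule names are not reported here. Sequences came from RefSeq (GRCh38.p14) and GENCODE 29 (GRCh38). The files use hg19, and no coordinate was converted.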

Additional observations from a re-analysis of the deposited data

How the results depend on the processing

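The direction of the differences of the 8 tested factors was kept under every alternative except for TCF3, which turned to 0.00565 for both knockout groups and to 0.0154 for SNAI1_KO_2 under median-ratio scaling. Quantile and median-ratio scaling, the other pseudocounts and the fit on the compared groups alone kept each count of calls within 1.5 times. The sizes moved more: with a pseudocount of 0.1 and of 10, the log2 difference for both groups was -2.14 and -0.23 for ZEB1, -1.32 and -0.54 for ZEB2, -1.09 and -0.31 for TWIST1, and -0.76 and -0.12 for TWIST2. With 10, ZEB1 changed less than SNAI2 (-0.38) and TCF4 (-0.42). Without the replicate block, that is, without pairing libraries by table, 0 factors were called in any comparison with WT. The genes called fell to 766 higher and 299 lower from 2201 and 2147. Of the lists, 0 of the snail superfamily, 2 E and ID proteins, 0 relatives of PRRX1, 8 other mesenchymal factors and 8 mesenchymal genes were called without the block. With no filter, 1206 genes were higher and 933 lower, 0 factors were called for either knockout group alone, and 1 snail and 9 other mesenchymal factors were called. With a mean of at least 5 FPKM, 3 factors were lower for both groups and for SNAI1_KO_1 and 2 for SNAI1_KO_2, of 5 tested. That filter left 1 twist family gene, 0 relatives of PRRX1 and 5 opposing factors called. Without the mean-variance trend, 0 factors rose in SNAI1_KO_1 and 1 snail gene was called. TWIST2 passed under quantile scaling (adjusted p = 0.0451), without the trend (0.0396) and in the fit on knockout against WT alone (0.0350).

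With each library left out in turn, the factors called higher for both groups ranged from 0 to 1 and those called lower from 2 to 5. For SNAI1_KO_1 they were 0 to 1 higher and 1 to 4 lower, and for SNAI1_KO_2 they were 1 higher and 0 to 4 lower. Between the lines the count stayed at 0. The genes called ranged from 1118 to 1609 higher and from 610 to 1231 lower. The lists ranged from 0 to 2 snail genes, 2 to 3 twist family genes, 3 to 5 E and ID proteins, 0 to 1 relatives of PRRX1, 9 to 16 other mesenchymal factors, 6 to 7 opposing factors, 18 to 19 repressed targets, 13 to 18 mesenchymal genes and 0 to 1 antisense or overlapping transcripts. Leaving out a WT library cost 3 calls each time: SNAI1, SNAI2 and ZEB1 for the first table, and SNAI2, TCF4 and TWIST1 for the second. The cause of these losses was not tested, and each of these fits also had fewer libraries. Depth is unknown.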
